A study of Mus musculus with 6 samples.

Results

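Complex I (NADH:ubiquinone oxidoreductase) is the first and largest enzyme of the respiratory chain in the inner mitochondrial membrane. It oxidises NADH, hands the electrons through a flavin and a row of iron-sulfur clusters to ubiquinone, and pumps protons. Its core subunits are conserved from bacteria and carry out catalysis, its accessory subunits surround and stabilise that core, and assembly factors help to build it without staying in it. Part of the core is encoded by mitochondrial DNA and the rest by nuclear genes. Neurons depend on it for ATP, and inherited defects cause Leigh syndrome, a degenerative disease of the brainstem and basal ganglia.

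The nuclear complex I genes were taken from the count table by symbol: Ndufa, Ndufb, Ndufc, Ndufs, Ndufv or Ndufaf followed by a digit, and Ndufab1. The names matched 49 rows, of which 2, Ndufb4b and Ndufb4c, repeated the Ensembl ID and counts of Ndufb4. The pseudogene name Ndufa12-ps was left out. This gave 47 of the 22584 genes in the table, and all 47 passed the filter on low counts among 16325 genes tested. They comprised 7 core subunits, 30 accessory subunits, 8 assembly factors and 2 genes kept apart, Ndufa4, now assigned to complex IV, and its paralog Ndufa4l2.

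RNA was measured in brain of wild-type mice after extraction with the AllPrep DNA/RNA/Protein kit of QIAGEN in 3 libraries, or with TRIzol, a phenol-based reagent, in 3 control libraries. The comparison asks how RNA levels after the kit differ from those after the conventional reagent. The labels name no age, sex, strain, brain region or source animal for a library. P-values therefore reflect the spread among these 6 libraries alone, and that spread may be technical. Values are CPM, the count divided by the library total and multiplied by 1000000, and log2 fold changes are AllPrep relative to TRIzol, so that negative values are lower levels after AllPrep.

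Totals were 36395330 to 50937858 counts per library, and the members together held 86210 to 114129 of them. A single member had between 54 and 9898 counts in a library. Libraries of the same method differed from each other beyond sampling noise (chi-square of 14.3 or more per degree of freedom), so none was treated as a library deposited more than once. Over all genes, edgeR's quasi-likelihood test with Benjamini-Hochberg adjustment called 412 genes higher and 209 lower after AllPrep. The marker lists for other cells included 4 choroid plexus genes. They summed to 13.0 to 17.9 CPM after TRIzol and 570 to 1137 CPM after AllPrep. All 4 were called higher, against 2.52% of all tested genes.

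Promoters of members were searched for short motifs, which the selection of the members did not use, and each stretch shown holds a match. Nuclear respiratory factor 1 (NRF-1), ETS-family factors such as GABPA, and YY1 are known regulators of nuclear genes for the respiratory chain. RefSeq promoters on GRCm38.p6, 300 bases from 250 before to 50 after the annotated start, were found for 41 members. For 37 of them, bases after the start were found in a GENCODE transcript of the same symbol. For Ndufa1, Ndufa3, Ndufb1 and Ndufs7 they were not, and these promoters were kept in the shares below. All 41 promoters were searched on both strands, and matches to different motifs could overlap. The following stretches of 100 bases end just before the RefSeq start, run 5′ to 3′ along the gene and have the match in capitals. Ndufa11 and Ndufs5, accessory subunits, hold a match to the NRF-1 consensus with any base allowed at 1 position, and Ndufaf1 and Ndufaf8, assembly factors, hold an ETS match (CCGGAAG).
Ndufa11, chr17:56717662-56717761, plus strand: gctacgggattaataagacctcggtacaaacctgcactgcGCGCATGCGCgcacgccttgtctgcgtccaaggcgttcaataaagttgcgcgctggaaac
Ndufs5, chr4:123718187-123718286, minus strand: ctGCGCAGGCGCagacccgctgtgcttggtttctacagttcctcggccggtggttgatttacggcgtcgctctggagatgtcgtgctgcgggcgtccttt
Ndufaf1, chr2:119662835-119662934, minus strand: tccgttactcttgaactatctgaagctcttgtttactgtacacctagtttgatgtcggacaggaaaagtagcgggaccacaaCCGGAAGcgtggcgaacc
Ndufaf8, chr11:120098834-120098933, plus strand: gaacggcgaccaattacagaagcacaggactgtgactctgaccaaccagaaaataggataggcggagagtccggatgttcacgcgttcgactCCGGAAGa

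This NRF-1 consensus was present in 9 of the 41 promoters (22.0%), against 4.78% of 27025 RefSeq promoters of the same length. These 9 were Ndufa5, Ndufa6, Ndufa8, Ndufa11, Ndufb4, Ndufs5, Ndufs6, Ndufaf4 and Ndufaf5, so they included accessory subunits and assembly factors but no core subunit. The exact consensus, as in Ndufa11, was in 3 of the 41 (7.32%) and in 0.977% of all promoters. The YY1 letters AAGATGGC were in 8 (19.5%) against 2.88%, and the ETS letters CCGGAAG in 6 (14.6%) against 9.12%. At least 1 of these 3 motifs was in 21 promoters (51.2%) and in 15.2% of all. The GC box GGGCGG was in 21 (51.2%) against 35.9%, and TATAAA in 4 (9.76%) against 14.2%. Ndufa3 and Ndufs7, whose starts were not found in a transcript, each held a YY1 and a TATAAA match. These shares are descriptions of letters in a window, not of bound sites.

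Nuclear complex I transcripts had lower levels after AllPrep than after TRIzol across the whole set, by a small amount per gene. All 47 log2 fold changes were negative, against 51.5% of all tested genes, and their median was -0.30, or 18.7% lower, against -0.01 for all tested genes. With trends on transcript length and GC content removed in each library, the median was -0.17, that of the assembly factors moved from -0.22 to -0.11, and 46 of 47 stayed negative, with Ndufb8 at 0.029. No single member passed edgeR's quasi-likelihood test after Benjamini-Hochberg adjustment over all genes: 0 of 47 were lower, against 1.28% of all tested genes, and 0 were higher, against 2.52%. At an unadjusted p below 0.05, edgeR had 32 members lower (background 12.4%) and 0 higher. DESeq2 called 20 members lower (background 5.38%) and 0 higher (background 8.3%), and at an adjusted p below 0.1 edgeR had 18 (background 5.21%). The smallest adjusted p in edgeR was 0.052, for Ndufv1. With other settings, edgeR called 4 members lower with library size alone (background 1.92%), 2 without the filter on low counts (0.987%), 2 with a filter of 1 CPM in 3 libraries (1.6%) and 2 on halved counts (1.5%), and limma-trend called 1 (1.33%). In simulated libraries edgeR found 4.26% of the genes given a 1.25-fold change and DESeq2 17.0%, while 6.93% and 25.6% of their calls were unchanged genes.

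The 3 AllPrep values lay below all 3 TRIzol values for 36 members (76.6%, background 20.6%). For the other 11 members the methods overlapped, and none lay higher after AllPrep without overlap (background 13.4%). The order of members by level was nearly the same in both methods, with a rank correlation of 0.993 across the 47 genes. In bulk tissue, fewer cells that express these genes, less RNA per cell and different recovery by the extraction cannot be told apart.

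Summed over the members, the TRIzol libraries gave 2894, 2867 and 2536 CPM and the AllPrep libraries 2161, 2236 and 2160 CPM. The mean was 2766 ± 199 (SD, n = 3) after TRIzol and 2186 ± 43.6 (SD, n = 3) after AllPrep, 21.0% lower. The members thus took 0.277% ± 0.0199 of all counts after TRIzol and 0.219% ± 0.00436 after AllPrep. TRIzol replicate 3 was the TRIzol library nearest to the AllPrep libraries, yet it stayed above all 3 of them. It was the lowest TRIzol library for 35 of 47 members.

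**Figure D1:**
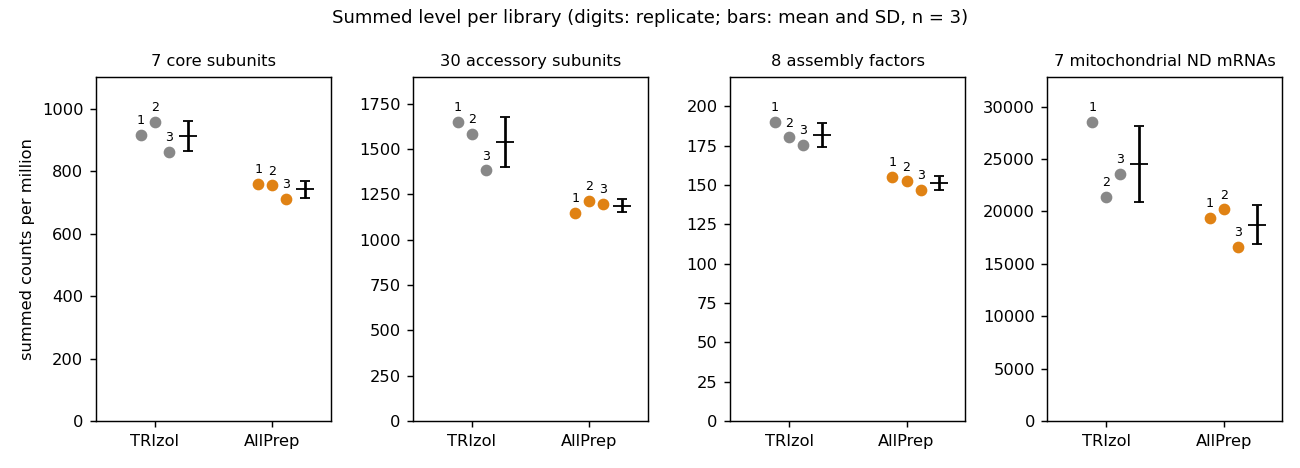
Summed level of each class in CPM (vertical axes, starting at 0) in the 3 TRIzol and the 3 AllPrep libraries (points), with the mean (horizontal line) and SD, for core, accessory, assembly and mitochondrially encoded genes. The core sums were 862 to 958 CPM after TRIzol and 711 to 760.2 CPM after AllPrep, and the classes shown had lower means after AllPrep.

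The core subunits form the catalytic path. Ndufv1, Ndufv2 and Ndufs1 belong to the N module, where NADH is oxidised, and Ndufs3, Ndufs7 and Ndufs8 to the Q module, where ubiquinone is reduced. Their sum was 916, 958 and 862 CPM after TRIzol and 760.2, 755 and 711 CPM after AllPrep, 18.7% lower in the mean. The median log2 fold change of the 7 genes was -0.23. For 6 of the 7 the AllPrep values lay lower without overlap (background 20.6%), 5 had an unadjusted p below 0.05 in edgeR (12.4%), and DESeq2 called 3 (5.38%).

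Ndufv1, the subunit that binds NADH and the flavin, had 184, 199 and 180.2 CPM after TRIzol and 150.4, 149 and 142 CPM after AllPrep. Every AllPrep library lay below every TRIzol library, and the spread within each method was small. The log2 fold change was -0.31 (SE 0.07, edgeR adjusted p = 0.052), with a 95% interval of -0.47 to -0.16 from limma and an adjusted p of 0.0017 in DESeq2.

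Ndufv2, its iron-sulfur partner in the N module, had 151, 127 and 116 CPM after TRIzol and 96.4, 95.1 and 87.9 CPM after AllPrep. The TRIzol libraries spread more widely than for Ndufv1 but stayed above all AllPrep libraries. Its log2 fold change of -0.46 (SE 0.11, edgeR adjusted p = 0.059) was the most negative of the core, with an interval of -0.70 to -0.21 and a DESeq2 adjusted p of 0.0036.

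Ndufs1, the subunit with the most iron-sulfur clusters, was the core gene whose methods overlapped. It had 128, 169.5 and 149 CPM after TRIzol and 139, 133 and 125 CPM after AllPrep, so TRIzol replicate 1 lay within the AllPrep range. Its log2 fold change was -0.13 (SE 0.10, edgeR adjusted p = 0.46), and its interval of -0.37 to 0.11 included 0. The core genes of the N module therefore ranged from -0.46 to -0.13.

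In the Q module, Ndufs3 had 95.9, 89.6 and 92.2 CPM after TRIzol and 74.0, 80.5 and 76.0 CPM after AllPrep (log2 fold change -0.23, SE 0.07, edgeR adjusted p = 0.10). Its methods did not overlap. Ndufs8, which carries a pair of iron-sulfur clusters, had 60.2, 59.3 and 50.98 CPM against 46.5, 43.8 and 44.2 CPM (-0.31, SE 0.08, edgeR adjusted p = 0.075, DESeq2 adjusted p = 0.029). Ndufs7, which holds the last cluster before ubiquinone, had 61.4, 65.1 and 54.0 CPM against 53.5, 51.05 and 50.7 CPM, with TRIzol replicate 3 just above AllPrep replicate 1. Its log2 fold change was -0.18 (SE 0.08, edgeR adjusted p = 0.22), and the interval of -0.37 to 0.02 included 0.

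The accessory subunits had the most negative median of the classes, -0.34, but the difference between classes was not tested. Their sum was 1650, 1584 and 1382 CPM after TRIzol and 1150, 1216 and 1198 CPM after AllPrep, 22.8% lower in the mean. The AllPrep values lay lower without overlap for 22 of the 30 (background 20.6%), 23 had an unadjusted p below 0.05 in edgeR (12.4%), and DESeq2 called 16 (5.38%). The 95% interval lay below 0 for 22 (12.3%).

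Ndufa12, an accessory subunit of the N module, had 74.7, 78.6 and 72.0 CPM after TRIzol and 60.8, 60.4 and 56.9 CPM after AllPrep (log2 fold change -0.30, SE 0.07, edgeR adjusted p = 0.053). Ndufs4, also of the N module, whose loss causes Leigh-like disease in mice, had 53.3, 50.8 and 51.2 CPM against 39.4, 43.4 and 35.8 CPM (-0.35, SE 0.09, edgeR adjusted p = 0.064). In both genes the TRIzol libraries lay close together and above every AllPrep library.

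Ndufa6 of the Q module, an LYR-motif protein that binds the acyl carrier protein Ndufab1, had 61.6, 64.9 and 51.7 CPM after TRIzol and 40.7, 45.0 and 41.7 CPM after AllPrep. Its log2 fold change was -0.45 (SE 0.10, edgeR adjusted p = 0.055). Ndufa13, known also as GRIM-19, had 107, 95.8 and 83.8 CPM against 58.8, 67.8 and 72.9 CPM (-0.48, SE 0.12, edgeR adjusted p = 0.065). Neither overlapped between methods, although TRIzol replicate 3 was the lowest TRIzol library for both. Exons of Ndufa13 share bases with Tssk6 on the opposite strand, and no source used here says whether counting used strand, so reads of the 2 genes cannot be told apart. In all, 20 of the 47 members share exon bases with another annotated gene, and for most of them it lies on the opposite strand.

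The largest shifts were those of Ndufa5 and Ndufb1, and both were spread widely between libraries. Ndufa5, in the Q module, had 37.8, 30.1 and 22.8 CPM after TRIzol and 16.7, 18.1 and 20.1 CPM after AllPrep. Its log2 fold change was -0.69 (SE 0.18, edgeR adjusted p = 0.071), with an interval of -1.08 to -0.24, and it ran from -0.85 to -0.49 when single libraries were left out. Ndufb1, in the distal membrane arm, had 20.4, 24.4 and 13.9 CPM against 9.64, 11.2 and 14.7 CPM, so AllPrep replicate 3 lay above TRIzol replicate 3. Its log2 fold change was -0.68 (SE 0.23, edgeR adjusted p = 0.13, DESeq2 adjusted p = 0.040). GENCODE vM21 lists this gene as Ndufb1-ps, and it overlaps Cpsf2 on the opposite strand.

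The most abundant accessory genes had moderate shifts. Ndufa10, a nucleoside-kinase-like subunit, had 140.0, 135 and 143 CPM after TRIzol and 121, 122 and 110.3 CPM after AllPrep (log2 fold change -0.21, SE 0.07, edgeR adjusted p = 0.12). Ndufb10 had 109, 102 and 87.3 CPM against 76.9, 78.6 and 76.9 CPM (-0.32, SE 0.09, edgeR adjusted p = 0.088, DESeq2 adjusted p = 0.032). Neither overlapped between methods.

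The accessory genes nearest to 0 were Ndufb8 and Ndufa7. Ndufb8 had 4.01, 3.61 and 4.20 CPM after TRIzol and 4.18, 3.50 and 2.91 CPM after AllPrep (log2 fold change -0.13, SE 0.17, edgeR adjusted p = 0.68). Its exons share bases with Gm20538 on the same strand, so reads of these 2 genes may have been assigned to either or to neither. Ndufa7 had 41.85, 51.3 and 37.5 CPM against 34.6, 39.8 and 36.95 CPM (-0.19, SE 0.13, edgeR adjusted p = 0.37). Both overlapped between methods.

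The other 20 accessory subunits had log2 fold changes from -0.59 to -0.24 and edgeR adjusted p from 0.065 to 0.26. Their mean levels after TRIzol ran from 16.6 to 91.5 CPM, and 15 lay lower after AllPrep without overlap (background 20.6%). The extremes were Ndufs6, a zinc-binding subunit of the N module at -0.59 (edgeR adjusted p = 0.081, DESeq2 adjusted p = 0.013), and Ndufab1, the acyl carrier protein, at -0.24 (edgeR adjusted p = 0.12). Ndufs6 shares exon bases with Mrpl36 on the opposite strand. The level of Ndufb4 is uncertain to the extent that reads could also match its copies Ndufb4b and Ndufb4c.

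**Figure D2:**
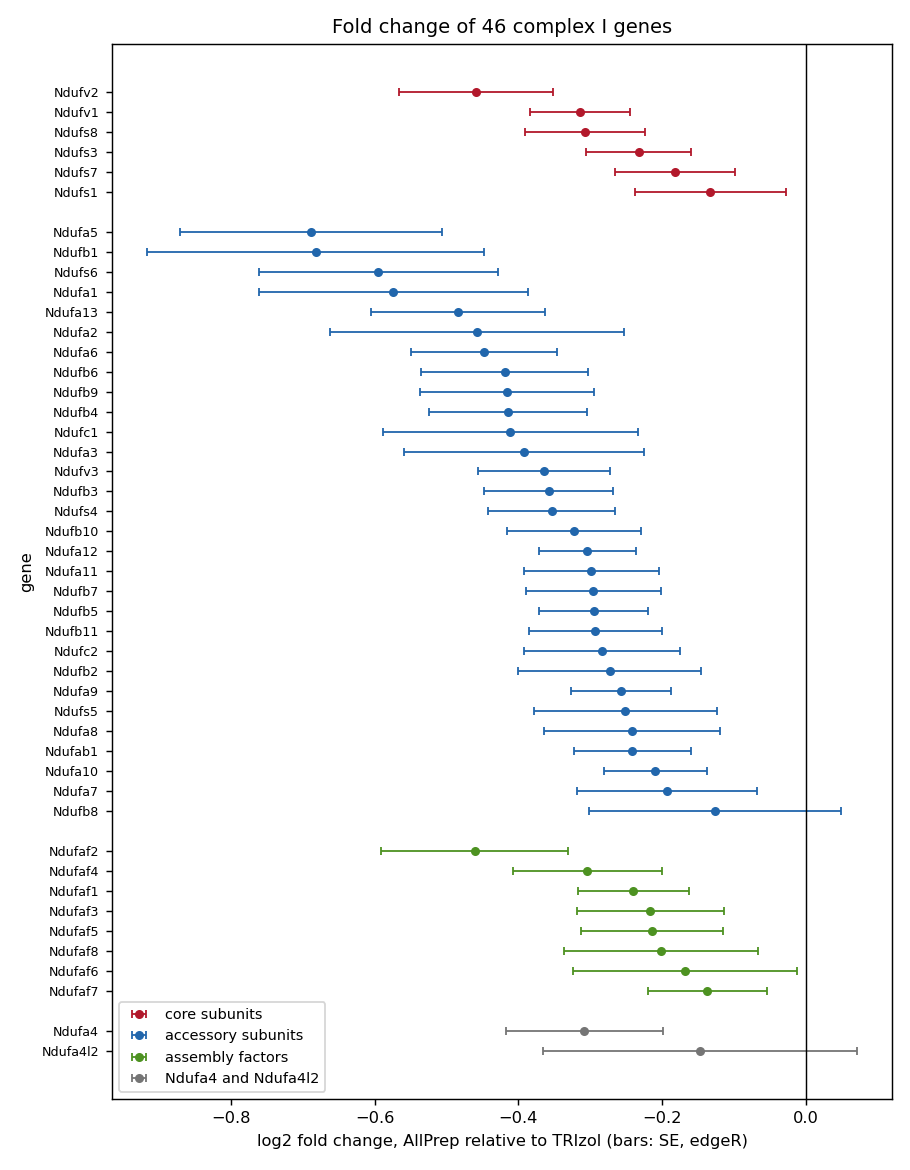
Log2 fold change of 46 members (AllPrep relative to TRIzol, horizontal axis) with its SE from edgeR (bars), grouped by class (colours). All points lie below 0, from -0.69 for Ndufa5 to -0.13 for Ndufb8, and the SE bars of Ndufb8 and Ndufa4l2 reach past 0.

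The 95% interval from limma lay wholly below 0 for 31 of the 47 members, against 12.3% of all tested genes.

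By place in the complex, the median log2 fold change was -0.36 in the N module (8 genes), -0.25 in the Q module (8 genes), -0.30 in the proximal membrane arm (9 genes) and -0.32 in the distal membrane arm (11 genes). Genes without overlap numbered 6 of 8, 7 of 8, 6 of 9 and 8 of 11 in the same order (background 20.6%). DESeq2 called 6, 4, 2 and 7 members of these modules (background 5.38%). Every module had lower values after AllPrep, and differences between modules were not tested.

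The assembly factors had lower sums as well, 190.0, 180.1 and 175 CPM after TRIzol and 155, 152 and 147 CPM after AllPrep, 16.8% lower in the mean. Their median log2 fold change was -0.22. The AllPrep values lay lower without overlap for 7 of 8 (background 20.6%), 3 had an unadjusted p below 0.05 in edgeR (12.4%), and DESeq2 called 1 (5.38%). A single call among 8 genes does not set them apart from that background.

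Ndufaf2, a paralog of Ndufa12 that acts late in assembly, was that 1 gene. It had 13.7, 11.6 and 10.5 CPM after TRIzol and 8.30, 8.09 and 9.01 CPM after AllPrep (log2 fold change -0.46, SE 0.13, edgeR adjusted p = 0.082, DESeq2 adjusted p = 0.033). Ndufaf1, part of the complex that assembles the membrane arm, had 24.0, 22.7 and 23.7 CPM against 19.9, 18.8 and 19.5 CPM (-0.24, SE 0.08, edgeR adjusted p = 0.11). Ndufaf4, a factor for the Q module, had 37.4, 33.8 and 39.1 CPM against 31.3, 30.5 and 25.4 CPM (-0.30, SE 0.10, edgeR adjusted p = 0.12). All 3 were separated between methods.

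Ndufaf5 and Ndufaf7 modify core subunits, Ndufaf5 by hydroxylation of Ndufs7 and Ndufaf7 as a methyltransferase. Ndufaf5 had 32.45, 34.3 and 29.07 CPM after TRIzol and 29.06, 27.4 and 24.2 CPM after AllPrep, so the methods nearly touched (log2 fold change -0.21, SE 0.10, edgeR adjusted p = 0.22). Ndufaf7 had 43.1, 38.15 and 38.4 CPM against 35.02, 34.2 and 36.99 CPM (-0.14, SE 0.08, edgeR adjusted p = 0.34). Ndufaf6, needed early for the membrane arm, was the assembly factor whose methods overlapped. It had 5.39, 4.70 and 5.42 CPM against 5.21, 4.44 and 3.85 CPM (-0.17, SE 0.16, edgeR adjusted p = 0.53). Ndufaf3 and Ndufaf8 were at -0.22 and -0.20 (edgeR adjusted p = 0.23 and 0.38), without overlap.

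Ndufa4 had 136, 143 and 115 CPM after TRIzol and 95.1, 112 and 104 CPM after AllPrep, without overlap (log2 fold change -0.31, SE 0.11, edgeR adjusted p = 0.13). Its paralog Ndufa4l2, known as a hypoxia-induced gene and a pericyte marker in brain, was far lower, at 1.48, 1.87 and 2.27 CPM against 1.59, 1.74 and 1.63 CPM. Its values overlapped (-0.15, SE 0.22, edgeR adjusted p = 0.71).

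Per kilobase of transcript, Ndufa4 had the highest level of the 47, 215 CPM per kilobase after TRIzol and 169.6 after AllPrep. Ndufb10 (136 and 106) and Ndufv1 (113 and 88.7) were also among the highest. Lower levels in the core were those of Ndufs3 (88.5 after TRIzol), Ndufv2 (77.2), Ndufs7 (61.2), Ndufs8 (56.5) and Ndufs1 (56.0). Genes whose proteins stand in the complex in equal number thus differed more than 2-fold in level per kilobase within the core. The assembly factors lay lower, from 27.4 CPM per kilobase for Ndufaf5 to 4.78 for Ndufaf6 after TRIzol. These levels rest on 1 annotated transcript per gene. The longest listed were those of Ndufb2, Ndufaf4 and Ndufab1, with 4371, 3632 and 3479 bases.

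Proportions within the set overlapped between the methods. The accessory sum over the core sum was 1.80, 1.65 and 1.60 in the TRIzol libraries and 1.51, 1.61 and 1.69 in the AllPrep libraries, with overlap. The assembly sum over the core sum was 0.207, 0.188 and 0.203 against 0.204, 0.202 and 0.206, also with overlap. Mean ratios were 1.69 ± 0.103 and 1.60 ± 0.0872 for the first, and 0.1996 ± 0.0102 and 0.204 ± 0.00234 for the second (SD, n = 3).

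Core subunits encoded by mitochondrial DNA are made by a separate transcription system. Of these 7 genes, 5 had negative log2 fold changes (background 51.5%). The summed level of the 7 was 28549, 21414 and 23624 CPM after TRIzol and 19369, 20191 and 16632 CPM after AllPrep. It was 23.6% lower in the mean and without overlap. Set over the sum of the nuclear subunits, it was 11.1, 8.42 and 10.5 against 10.1, 10.2 and 8.71, with overlap. The most abundant was mt-Nd1, which had 9508, 6499 and 7450 CPM against 5368, 5869 and 4634 CPM (log2 fold change -0.53, SE 0.16, edgeR adjusted p = 0.10, DESeq2 adjusted p = 0.013). mt-Nd2, mt-Nd4 and mt-Nd5 were at -0.37, -0.41 and -0.13, and mt-Nd6, the one encoded on the other strand, at 0.011. The least abundant were mt-Nd3 at -0.24 (SE 0.31, edgeR adjusted p = 0.65) and mt-Nd4l at 0.54 (SE 0.33, edgeR adjusted p = 0.34), the latter with 1.45 to 4.05 CPM per library. None of the 7 passed edgeR's test (background 1.28% lower and 2.52% higher). In that test 3 had a negative value with an unadjusted p below 0.05 (background 12.4%). The median of the 7 was -0.24, and with trends on transcript length and GC content removed it turned to 0.029, with 3 of 7 negative.

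Assembly factors of complex I with other names had a median log2 fold change of -0.17. Of 12 listed, 11 were tested, 9 had negative values (background 51.5%), and 5 lay lower without overlap (background 20.6%). In edgeR's test 0 passed (background 1.28% lower and 2.52% higher), with 4 lower at an unadjusted p below 0.05 (background 12.4%). Foxred1 was at -0.33 (edgeR adjusted p = 0.070, DESeq2 adjusted p = 0.024) and Aifm1 at -0.31 (0.076 and 0.030 by the same tests). Acad9 was at -0.24 and Ecsit at -0.15. Nubpl, which delivers iron-sulfur clusters to complex I, was at 0.12, and Dmac1 at 0.01.

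Most nuclear genes for the other respiratory complexes and for cytosolic ribosomal proteins also had lower values after AllPrep. Of 48 nuclear genes for complexes II to V, 46 had negative log2 fold changes with a median of -0.24, 30 (62.5%, background 20.6%) lay lower without overlap, and 2 passed edgeR's test as lower (background 1.28%). Their summed level was 15.0% lower after AllPrep. In this list 1 gene lay higher after AllPrep without overlap (background 13.4%). The list was taken by name, its levels after TRIzol went down to 0.068 CPM, and its highest log2 fold change was 2.55. Of 82 tested cytosolic ribosomal protein genes, 81 were negative with a median of -0.33, 62 (75.6%) lay lower without overlap, and 1 passed as lower. With trends on length and GC content removed, the medians were -0.14 for complexes II to V (41 negative) and -0.21 for ribosomal protein genes (76 negative). Members of complex I stood at 76.6% without overlap and a median of -0.30. No test compared these lists.

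**Figure D3:**
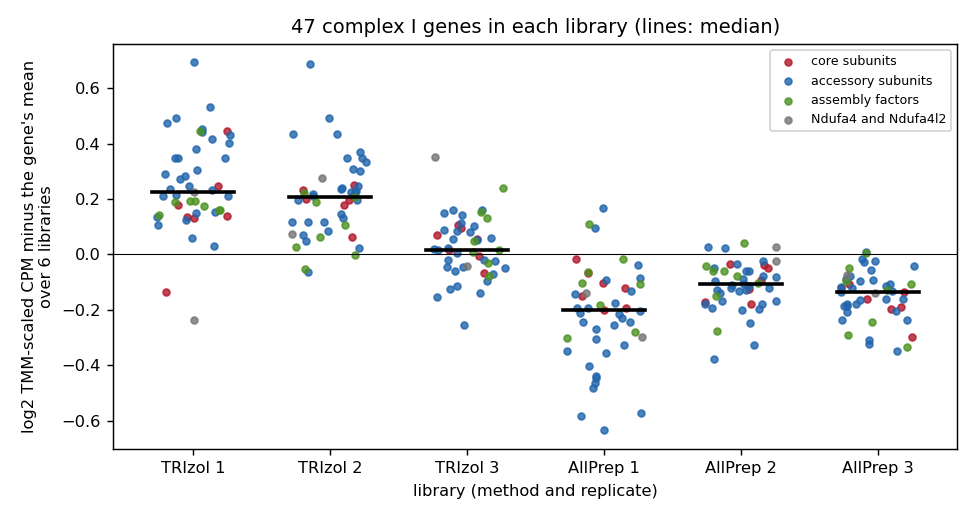
Deviation of each member in each library from its own mean over the 6 libraries (log2, scaled to TMM library size), one column per library. The medians were 0.22, 0.21 and 0.02 in the TRIzol libraries and -0.20, -0.11 and -0.14 in the AllPrep libraries, so TRIzol replicate 3 lies between the others.

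Most members have short transcripts. Their median length was 971 bases (419 to 4371), against 2955 bases for all tested genes, 751.5 for the genes of complexes II to V and 882 for ribosomal protein genes, while GC content was similar (51.7% against 50.3%). The accessory genes were the shortest, with a median of 812 bases, then the assembly factors with 1308.5 and the core with 1623. Across all 16219 tested genes with a length, the log2 fold change was higher for longer transcripts, with a Spearman correlation of 0.34. Across the 47 members it was 0.33. Both are descriptions over genes of the same 6 libraries, and genes are not independent replicates.

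Within bands of length the members had lower medians than all genes. Among genes of 500 to 1000 bases, the median log2 fold change was -0.32 for 24 members and -0.19 for all 978 genes, and 17 members lay lower without overlap, against 32.1% of the genes. From 1000 to 1500 bases, 11 members had a median of -0.26 and all 1521 genes -0.14, and 9 members lay lower without overlap, against 31.3%. From 1500 to 2000 bases, 6 members had a median of -0.33 and all 1865 genes -0.10. By library, the median deviation of the 25 members under 1000 bases was 0.30, 0.22 and -0.03 after TRIzol and -0.28, -0.11 and -0.11 after AllPrep (log2, from each gene's mean). For the 22 longer members it was 0.17, 0.20 and 0.08 against -0.12, -0.10 and -0.18. TRIzol replicate 3 thus lay nearer to the AllPrep libraries for short members, and in both sets it stayed above them. No member exceeded 5000 bases, a band in which all 3043 genes had a median of 0.17.

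**Figure D4:**
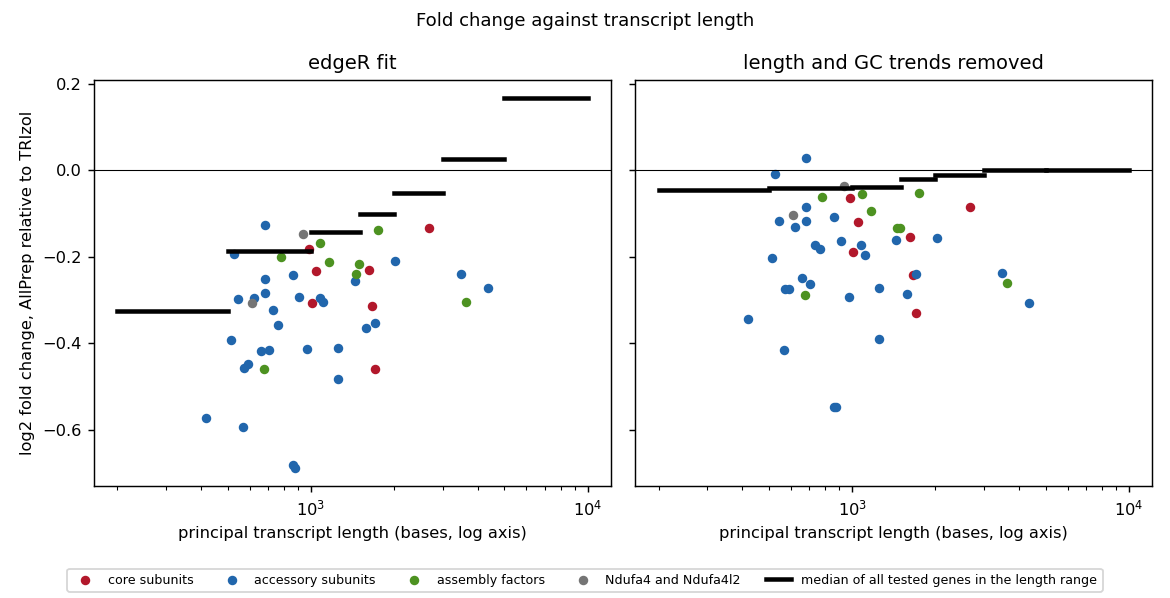
Log2 fold change (AllPrep relative to TRIzol) against principal transcript length (log axis, bases) for the members by class (points), from edgeR (left) and with length and GC trends removed (right), with the median of all tested genes per band of length (black lines). On the left, the band of 500 to 1000 bases has a median of -0.19 over all genes and -0.32 over its 24 members.

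Trends of log2 level on length and GC content were then removed in each library before the test. The median of the members moved from -0.30 to -0.17, with core, accessory and assembly at -0.16, -0.22 and -0.11, while that of all genes stayed at -0.01. Of the 47 members, 46 kept a negative value (background 52.0%), and Ndufb8 stood at 0.029. With edgeR, 0 members passed the adjusted threshold as lower (background 0.582%) and 0 as higher (background 0.778%), and 22 had an unadjusted p below 0.05 (background 11.3%). Ndufv1 and Ndufv2 then stood at -0.24 and -0.33, Ndufa5 and Ndufb1 both at -0.55, and Ndufa7 at -0.01. By module the medians were -0.26 (N), -0.16 (Q), -0.16 (proximal arm) and -0.18 (distal arm), and 6 of 8, 4 of 8, 1 of 9 and 8 of 11 genes had an unadjusted p below 0.05. The part of length in the members' lower values was not tested beyond this removal of trends.

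Cell type markers also differed between the methods. Neuron markers (6 genes, 4 negative, median -0.03) summed to 6686 to 7665 CPM after TRIzol and 5952 to 6631 CPM after AllPrep. For oligodendrocyte markers (4 of 4 negative, median -0.47) the sums were 4425 to 5341 CPM and 2377 to 4149 CPM. Astrocyte markers (4 genes, 2 negative, median 0.12) summed to 3492 to 4004 CPM and 4037 to 4350 CPM. Microglia markers (4 genes, 0 negative, median 0.16) summed to 169.5 to 173 CPM and 191 to 197 CPM. In the neuron, oligodendrocyte, astrocyte and microglia lists, edgeR called 0 genes in either direction (background 1.28% lower and 2.52% higher). Endothelium, red blood cell, muscle and liver sums overlapped between the methods. The choroid plexus and ependyma lists had 4 of 4 and 3 of 4 genes called higher (background 2.52%). No marker was at 0 in all libraries, and the part of cell makeup in the members' values was not tested.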

How the data were processed

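The table that the authors deposited holds raw, whole-number counts without normalization, for 6 RNA-seq libraries of mouse brain, 3 per method. Per the labels' protocols, libraries were amplified by in vitro transcription with T7 polymerase and read on an Illumina NovaSeq in pairs of 150 bases. The submitters' processing notes name FastQC 0.11.9, cutadapt, STAR 2.7.9a, featureCounts, limma 3.60.6 and GRCm39. Their settings for strand and for reads with several matches are not given in the sources. Of 22692 rows, 108 repeats of an Ensembl ID were removed, and 13 mitochondrial mRNAs were renamed by Ensembl ID. Counts from 1 to 20 were even in 64.2% to 70.9% of cases per library, which counting both mates would give, so halved counts were tried too.

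Genes were tested on all 6 libraries in R 4.3.3 with edgeR 4.0.16 (low counts filtered by filterByExpr, TMM, quasi-likelihood F-test, two-sided, Benjamini-Hochberg adjusted p below 0.05 over 16325 genes). The SE is the log2 fold change divided by the square root of F. Intervals came from limma 3.58.1 (trend, prior count 2). Classes, modules and sums were described without a test. Lengths and GC content came from GENCODE vM21, which is on another build, and were found for 99.4% of tested genes. The APPRIS principal protein-coding transcript was used where there was one, and otherwise the longest transcript. Smooth curves on these properties, fitted in each library with mgcv 1.9.3, entered edgeR as offsets to remove the trends. In simulated data of 16325 genes with a length trend, this took the correlation of fold change with length from 0.54 to 0.00. The simulated trend used the same lengths as the curves, so a value near 0 was largely set in advance. In the deposited data the Spearman correlation went from 0.34 to 0.03 over all tested genes with a length. Across the 47 members it went from 0.33 to -0.03. Also on simulated data, for this comparison, edgeR recovered 35.4% of genes changed 1.5-fold and 64.6% of those changed 2-fold.

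Alternatives were library size alone, DESeq2 1.42.0 or only its size factors, no filter, a filter of 1 CPM in 3 libraries, limma-trend, a threshold of 0.1, the replicate number as a block, removed trends, halved counts, and each library left out in turn. Members, classes and lists were chosen with earlier results of these data known. Named with every library's value were the core subunits, and among accessory and assembly genes the 4 with the smallest p, the 2 with the largest and the 2 with the smallest change, and the 2 most abundant. One gene that this rule named is not reported here. Ndufa4, Ndufa4l2, mt-Nd1 and the other genes named came from the same lists and were chosen after their values were seen.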

Additional observations from a re-analysis of the deposited data

How the results depend on the processing

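With no alternative did a member pass the threshold as higher after AllPrep. The count of members lower, 0 with edgeR (background 1.28%), became 18 at an adjusted p below 0.1 (5.21%) and 20 with DESeq2 (5.38%). It was 4 with library size alone (Ndufv1, Ndufv2, Ndufa6 and Ndufa12, background 1.92%) and 2 without the filter on low counts (0.987%). With at least 1 CPM in 3 libraries it was 2 (1.6%), with halved counts 2 (1.5%) and with limma-trend 1 (Ndufv1, adjusted p = 0.048, background 1.33%). When single libraries were left out the count ran from 0 to 2, with Ndufa5 and Ndufa6 past the threshold without TRIzol replicate 3. In that fit 68 of all tested genes were lower. The count of members with negative values ran from 46 to 47. In 17 alternatives per member, 763 of 799 single values kept their direction and side of the threshold, 33 passed the threshold and 3 reversed: Ndufb8 at 0.029 with trends on length and GC content removed and 0.018 with the block as well, and Ndufa4l2 at 0.016 without TRIzol replicate 3. With the trends removed, the medians were -0.17 (members), -0.16 (core), -0.22 (accessory) and -0.11 (assembly). With the block as well they were -0.17, -0.16, -0.22 and -0.11. With trends on the longest transcript, an alternative chosen after seeing the data, they were -0.20, -0.17, -0.26 and -0.11. Leaving out single libraries gave medians of -0.36 to -0.27 (members), -0.28 to -0.23 (core), -0.39 to -0.30 (accessory) and -0.25 to -0.19 (assembly).

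Over all genes, counts lower and higher were 850 and 1171 at an adjusted p below 0.1, 826 and 1275 with DESeq2, 95 and 127 with trends removed, 128 and 145 with trends on the longest transcript, and 0 to 68 and 2 to 137 when single libraries were left out. The replicate number as a block gave 41 and 195, and 8 and 32 with trends removed as well. It changed no member's call. Same-numbered libraries did not deviate together (correlations of -0.05, 0.01 and 0.16, and AllPrep replicate 1 correlated best with TRIzol replicate 2, at 0.20), so the numbers were not taken to pair them. The causes of these differences were not tested. Leaving 1 library out lowers the number of libraries and also removes that particular library, and these fits cannot separate the 2. With 3 libraries per method, changes of about 20% were rarely recovered in simulated data.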
